A study of Homo sapiens with 4 samples.

Results

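Tetraspanins are small proteins that cross the membrane several times and sit in the plasma membrane or in endosomes. They bind integrins, immunoglobulin-like receptors, proteases and each other, and so gather these partners into membrane patches. CD37 and CD53 are leukocyte members, and CD9, CD63 and CD81 are widely used as markers of extracellular vesicles. The genes described are CD9, CD37, CD53, CD63, CD81, CD82, CD151, TSPAN3, TSPAN31 and TSPAN33, 10 of the 33 human tetraspanin genes. Their members on the array are the probe sets whose platform annotation gives 1 of these symbols and no other, which are 21 of 54613 probe sets without array controls. The genes were selected on family membership around CD9, and CD9 on its measured difference between shSOX11 and shControl signals on these same arrays. The differences of the 10 genes are therefore given as a description, without a test.

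Z138 is an established human line of mantle cell lymphoma, a cancer of B cells that usually carries the transcription factor SOX11. Total RNA was measured on 4 Affymetrix U133+2.0 arrays, 1 per sample, and values are MAS5 signal intensities on a linear scale. All cells carried a lentiviral short hairpin RNA as stable transductants. The shControl group is 1 array of cells with the scrambled hairpin shControl.1 and 1 with the scrambled hairpin shControl.2. The shSOX11 group is 1 array each of cells with shSOX11.1 and shSOX11.3, hairpins against SOX11. Each array is thus a different construct in 1 cell line, nothing in the labels names separate cultures, and errors between arrays measure only the spread of these samples, which may be technical. Differences are shSOX11 minus shControl in log2 signal, and standard errors (SE) come from the limma fit over all 11938 genes tested. Where a gene has several probe sets, its brightest stands for it. Required was a signal over 24.8 (the median of the whole table) on 2 arrays or more, and signals under it are called dim.

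At the brightest of its 3 probe sets the target SOX11 stood at 42.5% of the control level. Of 6 B-cell markers with a probe set, 5 were above the threshold on all 4 arrays, and CD22 was dim under shSOX11.3. Their summed signal was 17298 and 17347 under the control hairpins and 14618 and 13892 under the SOX11 hairpins, most of it from MS4A1 and CD74. At their brightest probe sets all 6 were lower in the mean, beside 58.1% of all genes, with a median log2 difference of -0.49. The groups did not overlap for 4 of them, beside 24.9% of all genes that were lower without overlap. With median centring all 6 stayed lower, 3 without overlap, and the median was -0.41. The closest pair of MS4A1 was 1.05-fold apart. Its further probe sets overlapped between groups, with log2 differences of 0.57 (210356_x_at), 0.49 (217418_x_at) and -0.19 (228599_at). CD79B read 916 and 992 under the control hairpins against 535 and 658, and PAX5 read 1845 and 1666 against 646 and 1450. CCND1 and SOX11, genes typical of mantle cell lymphoma, were above the threshold on all arrays, and CD5, usual in this lymphoma, was dim on all 4. The ratio of 3′ to 5′ signal of beta-actin, which reflects RNA quality, stood at 11.6 in both shControl samples and at 7.29 (shSOX11.1) and 5.31 (shSOX11.3) in the others. It moved with the groups, whereas the same ratio of GAPDH overlapped, at 0.978 and 1.06 under the control hairpins and 1.01 and 1.03 under the SOX11 hairpins. Summed signals of T and NK cell markers (10 genes with a probe set) were 304 and 308 under the control hairpins against 286 and 277. Those of erythroid markers (4 genes) were 129 and 102 against 81.3 and 87.6. Of these genes only CD3G and HBB were above the threshold on all 4 arrays, and both overlapped between groups. CD3G, the brightest, read 160 and 207 under the control hairpins against 129 and 203. The rest of both sums came from genes dim on 1 array or more. Summed signals of myeloid markers (8 genes) and of epithelial and stromal markers (10 genes) overlapped between groups. The required signal was reached by 2 T and NK, 2 myeloid, 3 erythroid and 4 epithelial and stromal genes. Of these, 3 were higher without overlap under the SOX11 hairpins, beside 16.2% of all genes, picked here after their values were seen. AHSP, an erythroid marker, was the only 1 lower without overlap, beside 24.9% of all genes. It read 37.6 and 30.5 under the control hairpins against 11.6 and 26.7. PECAM1, an adhesion protein of endothelium and blood cells, read 212 and 280 under the control hairpins against 483 and 387 (log2 difference 0.83, SE 0.20, limma adjusted p = 0.388). Of its other kept probe sets, 208981_at and 208983_s_at were also higher without overlap. Probe set 1559921_at was lower without overlap, at 43.5 and 43.5 against 31.8 and 19.6. The myeloid receptors CSF3R and CSF1R were dim on both shControl arrays and just over the threshold on both others, at least 1.23-fold and 1.10-fold higher. The second CSF3R probe set was dim on all 4 arrays and overlapped between groups. The other 6 myeloid genes lacked the required signal. At their brightest probe sets CD14 and LYZ, dim on all 4 arrays, were lower without overlap, and the rest overlapped. COL1A1 made up most of the epithelial and stromal sum, at 1063 and 1012 against 1047 and 881 at its brightest probe set. Its other probe sets read far lower, the next brightest 141 and 114 against 114 and 77.3, and each was lower in the mean under the SOX11 hairpins. The part of these measures in the tetraspanin differences was not tested.

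CD9 was the clearest of the 10. CD9 binds integrins and immunoglobulin-like receptors, acts in cell adhesion and fusion, and is found on platelets, plasma cells and some B cells. Its bright probe set 201005_at read 1374 and 1452 under the control hairpins, 703 under shSOX11.1 and 561 under shSOX11.3. Both shSOX11 arrays lay below both shControl arrays, and the closest pair was still 1.96-fold apart. The mean log2 signal was 10.46 ± 0.06 under the control hairpins and 9.29 ± 0.23 under the SOX11 hairpins (SD, n = 2 each). This is a log2 difference of -1.17 (SE 0.16), or 44.5% of control. Against the control mean the log2 difference was -1.01 under shSOX11.1 and -1.33 under shSOX11.3, whereas the shControl arrays differed from each other by 0.08. In bulk RNA, fewer cells with CD9 and less CD9 RNA per cell cannot be told apart.

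The other CD9 probe sets add little, because both are dim. Probe set 233317_at read 14.7 and 20.6 under the control hairpins and 4.36 and 8.50 under the SOX11 hairpins. Probe set 233322_at read 17.6 and 16.2 against 21.8 and 27.0, with only shSOX11.3 above the threshold. The first was lower and the second higher on both shSOX11 arrays, so they disagree in direction, and neither passed the signal filter. Markers of platelets, cells rich in CD9, had a summed signal of 98.7 and 78.9 under the control hairpins and 59.3 and 56.6 under the SOX11 hairpins. Of the 5 platelet genes with a probe set 0 were above the threshold on all arrays. ITGA2B, a platelet integrin chain, read 32.5 and 25.8 under the control hairpins against 20.9 and 4.51, both dim, and was at least 1.17-fold lower. GP9 and PF4 were each above the threshold on 1 array, a shControl array, and PPBP and TUBB1 were dim on all 4. The part of these markers in the CD9 difference was not tested.

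**Figure D1:**
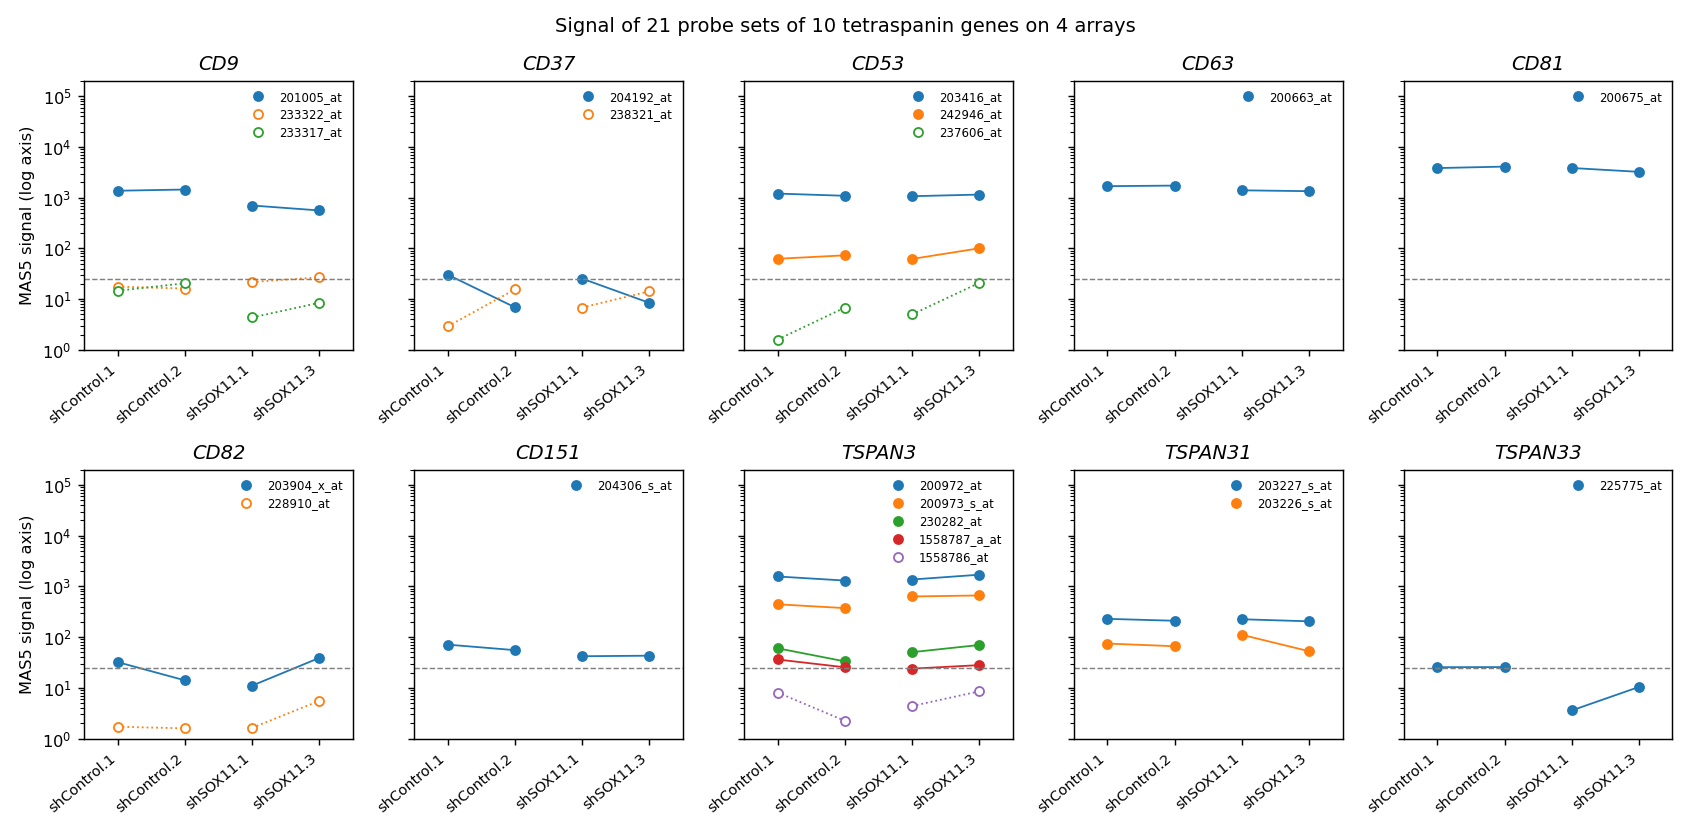
MAS5 signal (log axis) of the 21 probe sets of the 10 tetraspanin genes on each of the 4 arrays, with filled points and solid lines for probe sets past the signal filter, open points and dotted lines for the others, and the threshold of 24.8 as a dashed line. CD9 at its bright probe set falls from 1374 and 1452 to 703 and 561, while the brightest probe sets of CD53 and CD81 overlap between groups.

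SOX11 binds DNA, and for that reason the sequence in front of CD9 starts was looked at. RefSeq (GRCh38.p14) windows of 300 bases, 250 before and 50 from a transcript start on, were given for 6 of the 10 genes. They make 17 windows, and those of one gene partly overlap. No window was at hand for CD37, CD81, CD151 and TSPAN3. Letters typical of SOX binding were searched on both strands, first AACAAT and then, as another form, ACAAAG. The letters of these forms can overlap. AACAAT was in 1 of the 17 windows, a CD9 window, and in 10.1% of all 35116 windows. ACAAAG was in 3 of the 17, of CD9 and CD63, and in 16.1% of all windows. The 4 CD9 starts differ in base composition, from 45.0% to 75.7% G and C, beside a median of 58.7% over all windows. The 2 windows at these extremes are shown, with the 250 bases before the start on the plus strand and the matches to AACAAT and, read on the other strand, ACAAAG in capitals.
CD9 start with both matches, chr12:6225889-6226138: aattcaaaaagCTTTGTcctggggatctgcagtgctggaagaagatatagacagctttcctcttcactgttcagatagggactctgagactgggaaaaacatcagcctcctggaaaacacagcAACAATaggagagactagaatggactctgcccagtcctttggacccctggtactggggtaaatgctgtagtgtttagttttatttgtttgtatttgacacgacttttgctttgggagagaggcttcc
CD9 start richest in G and C, no match, chr12:6200150-6200399: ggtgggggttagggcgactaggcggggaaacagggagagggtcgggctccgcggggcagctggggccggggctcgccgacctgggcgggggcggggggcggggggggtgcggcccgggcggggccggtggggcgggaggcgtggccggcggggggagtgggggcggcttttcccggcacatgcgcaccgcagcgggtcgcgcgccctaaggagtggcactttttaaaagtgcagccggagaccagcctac
Counted from the transcript start as 0, the AACAAT match began at position -127 and the ACAAAG match at position -239. Both matches belong to the start at 6226139, which lies downstream of the CD9 starts at 6199946, 6200400 and 6200842, whose windows held no match. Which start these cells use is not known from these arrays. A match describes letters only, and no binding was measured in these samples.

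CD81 and CD63, the other members much used as vesicle markers, had smaller log2 differences than CD9, a comparison of sizes without a test. CD81, a widely expressed surface protein that binds integrins, read 3843 and 4111 under the control hairpins, 3860 under shSOX11.1 and 3239 under shSOX11.3. The groups overlapped, since shSOX11.1 lay just above shControl.1, and the log2 difference was -0.17 (SE 0.15). CD63, a protein of late endosomes and lysosomes, read 1691 and 1735 under the control hairpins and 1401 and 1346 under the SOX11 hairpins. The groups did not overlap, and the log2 difference of -0.32 (SE 0.14), or 80.2% of control, became -0.24 with each array centred on its median. For both genes 1 probe set was on the array, so no second reading stands beside it.

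The leukocyte members gave a level and a dim reading. CD53, found across white blood cells, read 1207 and 1092 under the control hairpins and 1072 and 1154 under the SOX11 hairpins. These ranges overlapped, and the log2 difference of -0.05 (SE 0.15) turned to 0.04 with median centring and to 0.09 with the mean of its probe sets. Its second kept probe set, 242946_at, read 62.5 and 73.2 against 62.0 and 101, also overlapping. CD37, a protein of mature B cells and a target of lymphoma antibodies, was dim in most readings. It read 30.4 under shControl.1, 6.91 under shControl.2, 25.4 under shSOX11.1 and 8.47 under shSOX11.3 at its kept probe set 204192_at. The higher readings were on 1 array of each group, so the log2 difference of 0.02 has an SE of 1.09 and gives no direction. The other CD37 probe set was under the threshold on all 4 arrays.

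Among members tied to integrins and movement, CD151 was lower and CD82 could not be read. CD151, a partner of laminin-binding integrins, read 71.2 and 55.4 under the control hairpins and 42.0 and 43.1 under the SOX11 hairpins. The groups did not overlap, with 1.29-fold between the closest pair. The log2 difference was -0.56 (SE 0.33), or 67.8% of control, and -0.35 with a pseudocount of 32. CD82, known as a suppressor of metastasis, read 32.1 and 14.1 under the control hairpins and 11.09 and 39.0 under the SOX11 hairpins. Each group had a reading above and a reading under the threshold, and the log2 difference was -0.03 (SE 0.82). This CD82 probe set ends in _x_at, Affymetrix's mark for possible cross-hybridization, and the other CD82 probe set was dim on all 4 arrays.

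TSPAN33, which escorts the protease ADAM10 and is induced in activated B cells, was close to the threshold or under it on every array. Its only probe set, 225775_at, read 25.6 and 25.7 under the control hairpins, just over the threshold, and 3.59 and 10.4 under the SOX11 hairpins. Both shSOX11 readings were dim, so only a bound holds, at least 1.03-fold lower. The fitted log2 difference of -2.07 (SE 1.07) rests on these dim readings, was -0.57 with a pseudocount of 32, and ranks TSPAN33 neither above nor below CD9.

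TSPAN3 showed how far probe sets of 1 gene can part, whereas both probe sets of TSPAN31 overlapped between groups. TSPAN3, a broadly expressed member, read 1571 and 1306 under the control hairpins and 1368 and 1702 under the SOX11 hairpins at its brightest probe set, 200972_at. The ranges overlapped, and the log2 difference was 0.09 (SE 0.17). At 200973_s_at the same gene read 444 and 374 under the control hairpins and 634 and 664 under the SOX11 hairpins. There both shSOX11 arrays lay above both shControl arrays, with a log2 difference of 0.67 (SE 0.17 in the fit of all probe sets). Among its dimmer probe sets, 230282_at was higher by 0.41 and 1558787_a_at had a difference of -0.23, and both overlapped between groups. What sets 200973_s_at apart from 200972_at was not tested. TSPAN31, whose gene lies beside CDK4 and is co-amplified with it in sarcomas, read 230 and 210 under the control hairpins and 225 and 205 under the SOX11 hairpins. Its log2 difference of -0.03 (SE 0.18) turned to 0.05 with median centring. The second TSPAN31 probe set read 74.7 and 66.2 under the control hairpins, 111 under shSOX11.1 and 52.8 under shSOX11.3. The shSOX11 arrays there lay on either side of the controls.

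**Figure D2:**
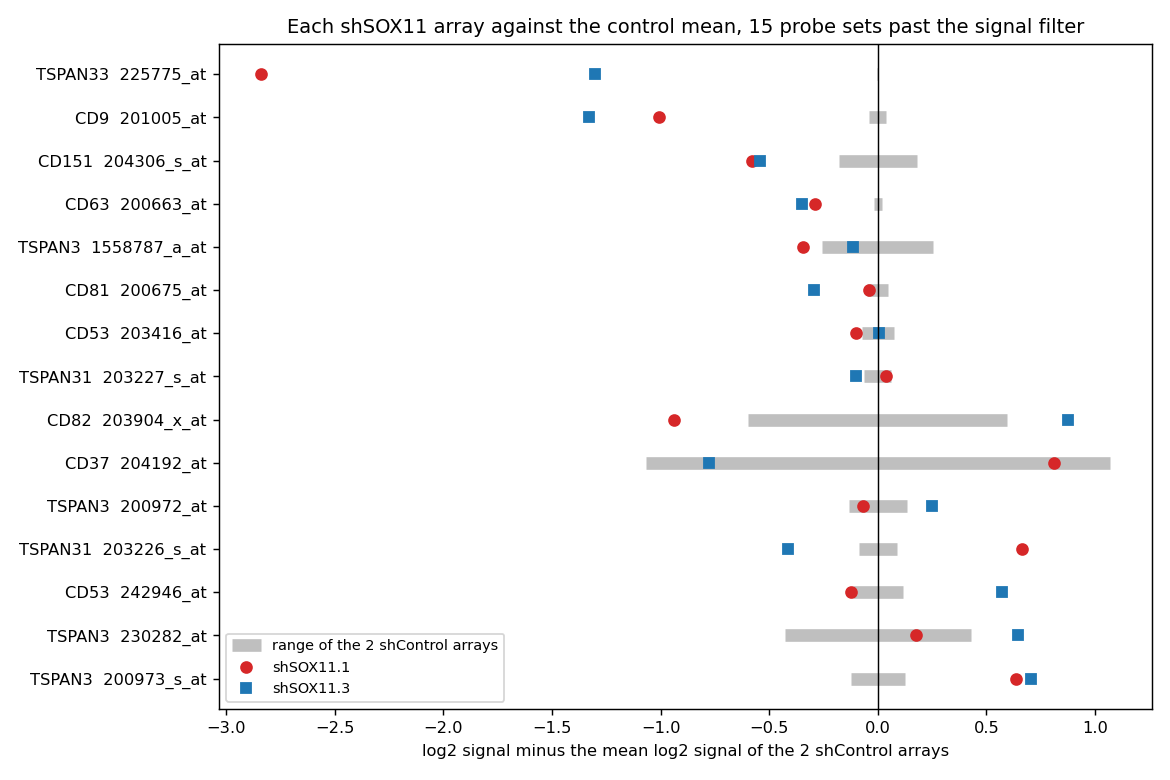
Log2 signal of shSOX11.1 (circles) and shSOX11.3 (squares) minus the mean of the 2 shControl arrays, for the 15 tetraspanin probe sets past the signal filter, with the range of the shControl arrays around their mean as grey bars. The points of CD9 lie at -1.01 and -1.33, outside a narrow bar, whereas those of CD37 and CD82 fall on either side of 0 inside or near wide bars.

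Of the 21 probe sets 15 passed the signal filter, with at least 1 for each of the 10 genes, and of the 6 left out only 233322_at of CD9 was above the threshold on any array. Of the 10 genes 7 were above the threshold on all arrays, and CD37, CD82 and TSPAN33 were so on 2 of the 4. In the mean 8 genes were lower and 2 higher, which became 7 and 3 with quantile normalization, 5 and 5 with median centring, 10 and 0 without shControl.2 and 5 and 5 without shControl.1. Over all genes 58.1% were lower. Groups did not overlap for 4 genes, all lower (CD9, CD63, CD151 and TSPAN33), or for 5 with quantile normalization, while over all 11938 genes 24.9% did not overlap and were lower and 16.2% did not overlap and were higher. When each shSOX11 array was set against each shControl array, CD9 and TSPAN33, 2 of 10, were lower by 1.5-fold or more in all 4 pairs. The share over all genes was 1.93% lower and 0.762% higher. TSPAN33 enters that count only through its dim readings. With signals under the threshold set to it, CD9 alone remained, 1 of 10, beside 1.07% of all genes lower and 0.41% higher. These counts come from the contrast for which CD9 was noticed, and nothing is read from them. The median log2 difference was -0.11 over the 10 genes (-0.09 with dim signals set to the threshold) and -0.06 over all genes. In limma with Benjamini-Hochberg adjustment 0 of 11938 genes (0%) passed an adjusted p of 0.05, and the unadjusted p was under 0.05 for 1001 of them (8.38%), of which 595 were lower (4.98% of all) and 406 higher (3.4%). In the fit of single probe sets 1 of 28202 (0.00355%) passed, and it belongs to none of the 10 genes.

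Seen among all genes, CD9 had a log2 difference that 2.04% of genes matched or undercut, or 0.218% with dim signals set to the threshold. The share was 8.88% for CD151 and 20.7% for CD63, and none is given for TSPAN33, which has only a bound. The other 6 members lay between 35.9% (CD81) and 69.3% (TSPAN3). The shSOX11 arrays differed from each other by a median of 0.28 in absolute log2 over the 10 genes, and the shControl arrays by 0.14. Over all genes tested the corresponding values were 0.30 and 0.18. CD37, CD82 and TSPAN33, the members with dim readings, differed by over 1.5 between the shSOX11 arrays, at -1.59, 1.82 and 1.54 (shSOX11.3 minus shSOX11.1).

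**Figure D3:**
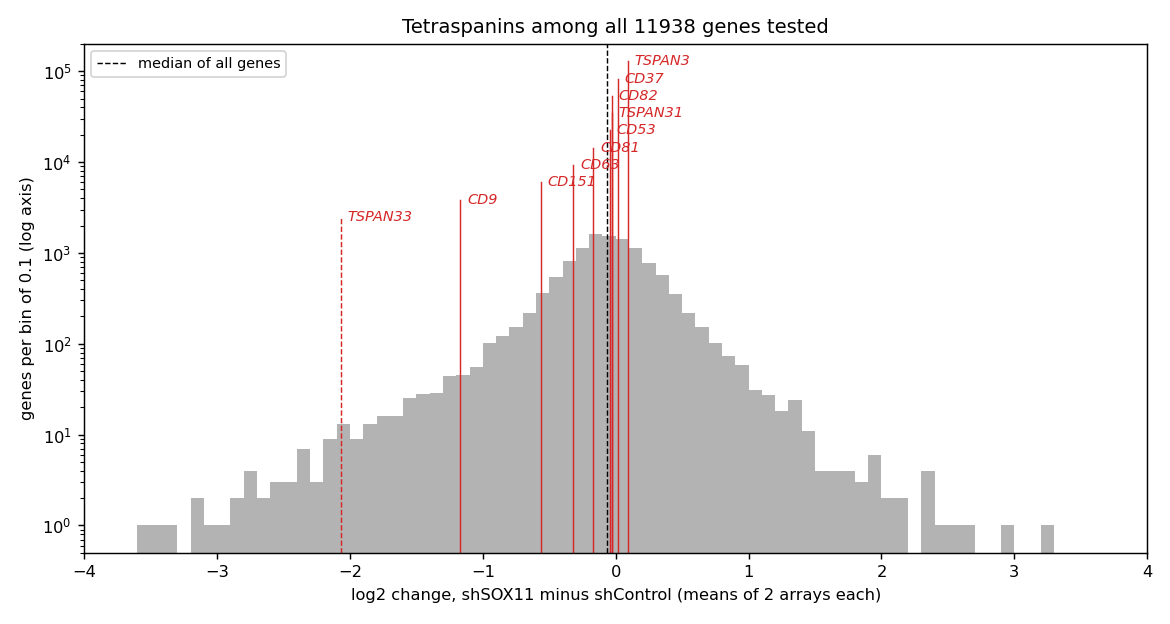
Histogram of the log2 difference (shSOX11 minus shControl, means of 2 arrays each) of the 11938 genes tested, with a log axis for genes per bin, and the 10 tetraspanins marked by lines of arbitrary height. CD9 lies in the left tail at -1.17, the dashed line of TSPAN33 stands at its fitted value, for which only a bound holds, and the other members lie between -0.56 and 0.09.

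By a fixed rule, the genes whose 4 centred log2 signals lay nearest to those of CD9 were TCP10L3, PLEKHG6, SCN8A, LINC00208 and DGKD, at Euclidean distances of 0.099, 0.127, 0.133, 0.134 and 0.147. The first 4 were dim on both shSOX11 arrays, so their distances rest on dim readings. As bounds TCP10L3 was at least 1.15-fold lower, PLEKHG6 1.43-fold, SCN8A 1.35-fold and LINC00208 1.59-fold. DGKD, a diacylglycerol kinase, was bright and read 531 and 584 under the control hairpins and 299 and 247 under the SOX11 hairpins. The likeness rests on the same 4 arrays on which CD9 was chosen, so lower readings in these genes follow from the rule.

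The rest of the family was mostly dim. Of the 23 other tetraspanin genes 22 had a probe set of their own and 9 passed the signal filter. Those under it included the bladder uroplakins UPK1A and UPK1B, and PRPH2 and ROM1 of photoreceptors. In limma 0 of the 9 passed an adjusted p of 0.05, and 1, a lower gene, had an unadjusted p under 0.05 (4.98% of all genes). The groups did not overlap for 3 of the 9 genes, all lower, beside 24.9% of all genes. The median log2 difference was -0.17, -0.08 with median centring and -0.09 with dim signals set to the threshold. In all 6 of the 9 were lower, and 5 with either median centring or quantile normalization.

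The gene with the smallest p, TSPAN32 of blood cells, read 44.7 and 43.8 under the control hairpins and 17.0 and 12.6 under the SOX11 hairpins. The shSOX11 readings were dim, so TSPAN32 was at least 1.78-fold lower, and the limma adjusted p over all genes was 0.514. Its probe set ends in _x_at, and its second probe set, under the filter, overlapped between groups. TSPAN14, like TSPAN33 an escort of ADAM10, read 173 and 163 under the control hairpins and 144 and 117 under the SOX11 hairpins (log2 difference -0.37, SE 0.21). Its second probe set read 140 and 151 against 77.3 and 102, also without overlap. TSPAN9 had a log2 difference of -0.58 (SE 0.38), and its groups did not overlap. TSPAN15 and TSPAN12 passed the filter on 2 arrays each and gave 1.19 (SE 1.11) and -0.91 (SE 1.495). TSPAN17, TSPAN2, TSPAN13 and TSPAN4 overlapped between groups, with log2 differences of 0.19, -0.17, 0.08 and -0.00063. Among the 9 the limma adjusted p over all genes ranged from 0.514 to 0.999.

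Partners of tetraspanins were taken from a list of 29 genes, of which 19 were tested. Of these 14 were lower and 5 higher, with a median of -0.14, which became 11 and 8 with median centring. In the fit 0 passed an adjusted p of 0.05 in limma, while 2 lower and 2 higher of the 19 had an unadjusted p under 0.05, beside 4.98% and 3.4% of all genes. The groups did not overlap for 8 lower and 3 higher genes, beside 24.9% and 16.2% of all genes. ITGB1, the integrin beta chain shared by CD9, CD81 and CD151 complexes, read 1322 and 1380 under the control hairpins and 2007 and 2242 under the SOX11 hairpins. This is a log2 difference of 0.65 (SE 0.14, limma adjusted p = 0.337), and its other kept probe sets were higher by 1.05 and 1.49. CD46, a complement regulator, read 896 and 893 against 1313 and 1273, a log2 difference of 0.53 (SE 0.14, limma adjusted p = 0.394). All 3 CD46 probe sets were higher without overlap. ITGB7, an integrin chain for homing to the gut, read 140 and 122 against 74.7 and 90.0 (log2 difference -0.67, SE 0.23). TIMP1, a metalloprotease inhibitor that binds CD63, read 50.7 and 42.1 under the control hairpins and 21.01 and 24.0, both dim, under the SOX11 hairpins, at least 1.86-fold lower. HLA-DMA, a peptide-loading chain of MHC class II, had a log2 difference of -0.28 (SE 0.14). The limma adjusted p of ITGB7, TIMP1 and HLA-DMA ranged from 0.514 to 0.610.

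Genes of vesicle formation and of lysosomal membranes, 17 of 20 tested, showed no common direction. Of them 8 were lower and 9 higher, with a median of 0.02 that turned to -0.0073 with quantile normalization. In limma 0 passed an adjusted p of 0.05, and 0 had an unadjusted p under 0.05, beside 8.38% of all genes. The groups did not overlap for 4 lower and 2 higher genes, beside 24.9% and 16.2% of all genes. The smallest p belonged to LAMP1, a lysosomal membrane protein, which read 3143 and 2839 under the control hairpins and 2545 and 2246 under the SOX11 hairpins (log2 difference -0.32, SE 0.14). Of its 4 probe sets past the filter, 1 was higher in the mean. SMPD3, a sphingomyelinase used in vesicle budding, read 20.7 and 27.1 against 42.9 and 50.7, near the threshold (log2 difference 0.98, SE 0.45). HGS and TSG101, which sort cargo into multivesicular bodies, had log2 differences of -0.42 (SE 0.21) and -0.39 (SE 0.20). SDCBP, the CD63-binding adaptor syntenin, was at 0.32 (SE 0.20), most of it under shSOX11.3. From LAMP1 to SDCBP the limma adjusted p ranged from 0.591 to 0.654.

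**Figure D4:**
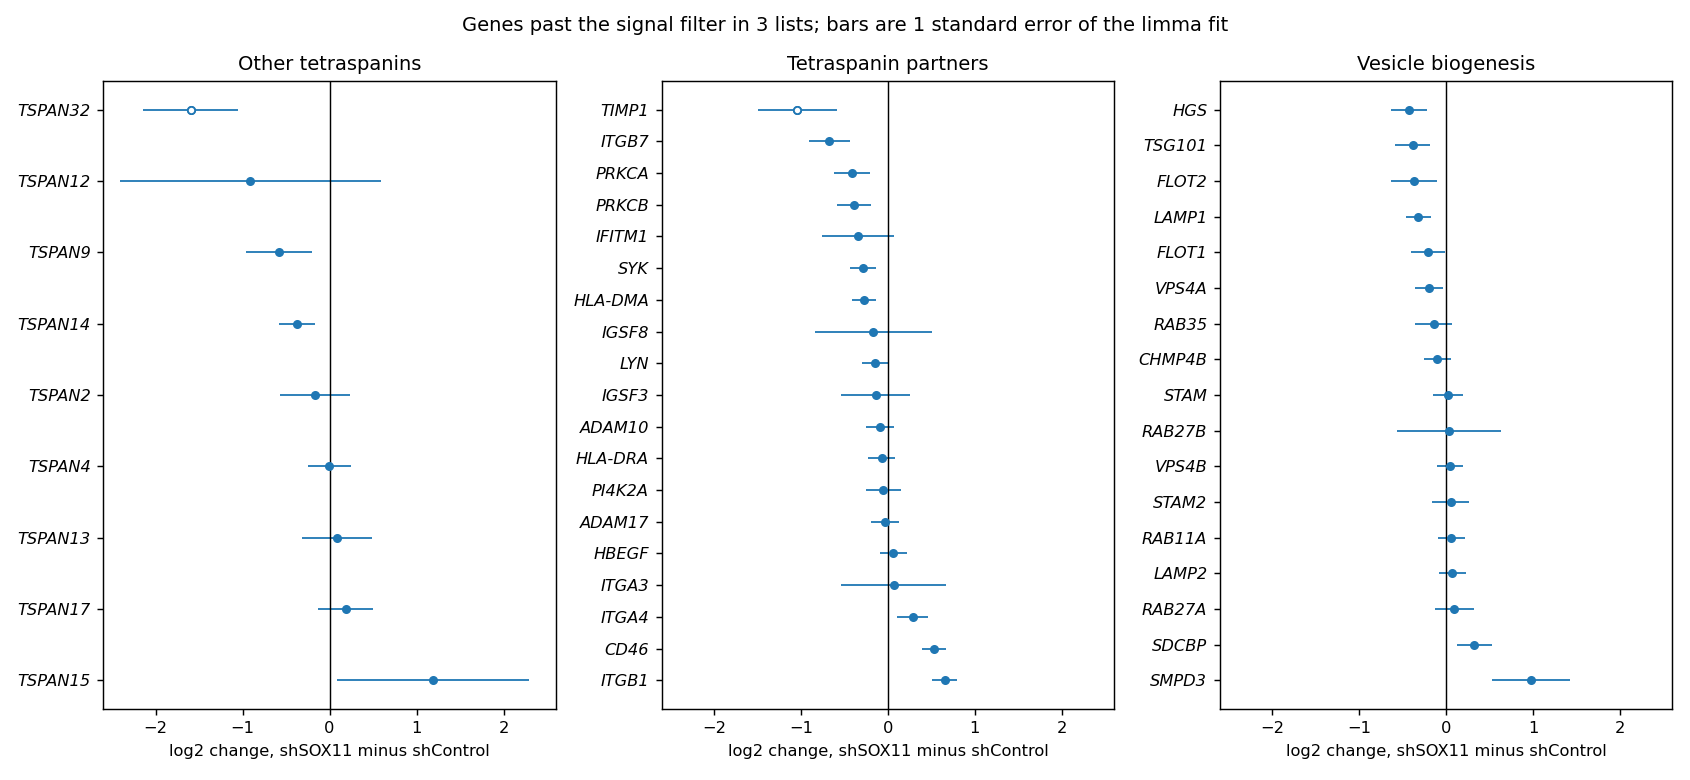
Log2 difference (shSOX11 minus shControl) of the genes past the signal filter among other tetraspanins (9), tetraspanin partners (19) and vesicle genes (17), with bars of 1 SE from the limma fit. Open points mark TSPAN32 and TIMP1, dim on both shSOX11 arrays, whose position is a fitted value while only a bound holds. ITGB1 and CD46 lie to the right among the partners at 0.65 and 0.53.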

How the data were processed

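The authors deposited a linear MAS5 signal intensity for each probe set. Affymetrix Expression Console is the program named in the submitters' processing notes, and its version and scaling target are not stated in what was used here. The 2% trimmed mean was 150 on every array, and median signals lay between 23.9 and 25.7. MAS5 subtracts mismatch signals, so dim probe sets carry more error. The number of arrays limits the precision.

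Groups came from the sample titles. The platform annotation gave 1 gene symbol to 41091 of the 54675 probe sets, several to 1801 and none to 11721, and 62 were array controls. Entrez identifiers of 41037 matched RefSeq (GRCh38.p14), and 0 symbols changed. Log2 signals were used without further normalization. Probe sets above 24.83 on at least 2 of 4 arrays were kept (28202), and the brightest of each gene stood for it. Group differences were fitted with limma 3.58.1 in R 4.3.3 (lmFit, eBayes with an intensity trend, two-sided, Benjamini-Hochberg over 11938 genes or 28202 probe sets, 2 residual degrees of freedom). The fit, and not the filter, bounds or list counts, was tested on simulated data with independent errors. A gene dim on both arrays of a group has a bound, the other group's mean over the threshold, and its fitted difference is no rank. Named were the 10 genes, SOX11, the 9 other tetraspanins past the filter, the 5 genes of smallest p of each further list and the 5 genes nearest to CD9. The members and lists were chosen with earlier results of these data known. Alternatives were other normalizations, a pseudocount of 32, other filters, probe set rules, variance models and thresholds, leaving out each array and, chosen after seeing the data, dim signals set to the threshold.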

Additional observations from a re-analysis of the deposited data

How the results depend on the processing

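The log2 difference of CD9 lay between -1.18 (quantile normalization) and -1.09 (median centring) with all 4 arrays, and between -1.33 and -1.01 with 1 array left out. Of the 10 tetraspanins 2 were at least 1.5-fold apart on all pairs (CD9 and TSPAN33, the latter through dim readings). The count was 1 with a 2-fold limit (TSPAN33, again through dim readings), 1 with signals under the threshold set to it (CD9, chosen after seeing the data), 1 with the filter at the 65th percentile (CD9) and 1 with a pseudocount of 32 (CD9). For the other 9 genes, 4 of 68 values moved by more than the spread between arrays and 8 changed sign with all 4 arrays. The sign changes were in CD37, CD53, CD82 and TSPAN31. With 1 array left out 10 of 36 changed sign, TSPAN3 among them. CD37 then ran from -1.05 to 1.09 and TSPAN33 from -2.84 to -1.30.

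Genes past the adjusted threshold ran from 0 to 953 with 1 array left out, namely 953 without shSOX11.1, 211 without shSOX11.3 and 0 without either shControl array. Such fits take the error of a lone array from the other group, and the shControl arrays lay closer together. Probe sets past it were 1 with all 4 arrays, which is no tetraspanin, and 0 with the filter at the 65th percentile, without a filter, with median centring, without the intensity trend and without probe sets ending in _x_at. They ran from 0 to 1585 with 1 array left out (0 without either shControl array, 200 without shSOX11.3). Median centring moved the share of lower genes from 58.1% to 47.3%. No paired analysis was possible because the groups share only 1 construct number, which names unlike hairpins.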
